A study of Mus musculus with 42 samples.

Results

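The immediate early genes followed here are *Fos*, *Fosb*, *Jun*, *Junb*, *Egr1*, *Egr2*, *Ier2*, *Atf3*, *Nr4a1* and *Dusp1*. All 10 were taken by name, through their Ensembl identifiers, from a count table of 56953 mouse genes, by a rule that sets no threshold on their values. The table holds 42 polyA RNA libraries, made from the left and right parts of the microdissected heart field of 21 embryos at stage E8.5i, when the direction of heart looping can be seen. There were 5 wild types (*Ccdc40*+/+) with rightward looping, 11 homozygous mutants (*Ccdc40*lnks/lnks) with rightward looping and 5 homozygous mutants with inverted looping. *Ccdc40* encodes a part of the motile cilium, and *lnks* is a germline nonsense allele carried in every cell. The labels give the direction of looping and no finer class of situs, so the mutants with rightward looping were not split further. By the study's own clustering they mix situs solitus and heterotaxy, and their medians cover both. Each library is a piece of tissue that can hold heart muscle, its progenitors, foregut, vessels, blood and neighbouring neural tube. In such bulk samples, fewer cells of a type and less RNA per cell cannot be told apart.

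Immediate early genes are switched on within minutes of a stimulus, without new protein synthesis, when kinases of the MAPK pathway or calcium and cAMP signals reach transcription factors that are already bound at their promoters. *Fos*, *Fosb*, *Jun* and *Junb* encode subunits of the dimeric AP-1 factor, *Egr1* and *Egr2* encode zinc finger factors, *Atf3* a basic leucine zipper factor and *Nr4a1* an orphan nuclear receptor. *Ier2* encodes a small nuclear protein, and *Dusp1* encodes a phosphatase that switches MAP kinases off again. They respond to growth factors, to stretch and to handling of tissue, and some have a patterned expression in the embryo, such as *Egr2* (Krox20) in rhombomeres of the hindbrain.

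The best-known element of these promoters is the CArG box, the core of the serum response element, which the factor SRF binds in immediate early genes and in muscle genes. It was searched on both strands, from 500 bases before to 50 bases from the annotated start of the canonical transcript. On GRCm39, 3 of the 10 genes held a CArG box in this window, against 631 of 21757 protein-coding genes, or 2.9%. The window follows the annotated start, which for *Egr1* leaves its known serum response elements outside, so *Egr1* counts among the genes without a box. The box is CC and GG around a run of A and T. The stretches that hold it are those of *Fos*, *Fosb* and *Egr2*. The part of the box in the ratios between the sides was not tested. Capitals mark the box, and each stretch is written 5′ to 3′ on the strand of the gene with 30 bases on each side. The stretch of *Fos* lies at chr12:85520325-85520394 on the plus strand, with its box starting 303 bases before the start of transcription. That of *Fosb* lies at chr7:19044203-19044272 on the minus strand, with its box starting 266 bases before the start. *Egr2* held a pair of boxes on the plus strand, the first at chr10:67373294-67373363 and the other at chr10:67373597-67373666, which start 368 and 65 bases before the start.
Fos: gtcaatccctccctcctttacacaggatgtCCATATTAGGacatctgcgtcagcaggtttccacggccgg
Fosb: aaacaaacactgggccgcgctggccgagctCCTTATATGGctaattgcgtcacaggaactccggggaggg
Egr2, distal: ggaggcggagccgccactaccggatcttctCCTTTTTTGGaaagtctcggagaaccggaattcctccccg
Egr2, proximal: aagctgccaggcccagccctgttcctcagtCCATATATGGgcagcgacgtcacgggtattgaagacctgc

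The CRE, spelled TGACGTCA and bound by CREB and ATF factors, is the element through which cAMP and calcium signals act. *Ier2* and *Dusp1* held it in the same window, 2 of the 10 genes against 590 of 21757, or 2.71%. They are shown, with the CRE in capitals, as members of high level that neither edgeR nor DESeq2 called in any comparison. The stretch of *Ier2* lies at chr8:85389489-85389556 on the minus strand and that of *Dusp1* at chr17:26727552-26727619 on the minus strand. The CRE starts 43 bases before the start of *Ier2* and 96 bases before that of *Dusp1*. The AP-1 site (TGACTCA or TGAGTCA) was in none of the 10 windows and in 1787 of all 21757, or 8.21%. Such matches are descriptions of the sequence and say nothing of which factor was bound in these embryos.
Ier2: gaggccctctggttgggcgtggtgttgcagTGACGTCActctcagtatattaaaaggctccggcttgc
Dusp1: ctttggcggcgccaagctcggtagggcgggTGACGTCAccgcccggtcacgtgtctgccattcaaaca

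The libraries held 36073684 to 62970327 counts each, the median being 43458644. Levels are given as CPM, counts relative to the size of the library after TMM scaling. *Ccdc40* checked the genotype labels. Its level lay between 15.2 and 26.5 CPM in the libraries of wild types and between 8.83 and 14.8 CPM in those of mutants, without overlap. The embryo 15_5, a mutant with rightward looping, stood apart from the other 20 embryos in some of these genes, as described below. The levels and spreads of *Fos* and *Junb* are given with and without it.

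All 10 genes were detected, at very different levels. Per kilobase of annotated exon, *Ier2* was the highest, with a mean of 118 ± 20.2 CPM per kilobase (SD, n = 42 libraries), followed by *Jun* with 36 ± 5.93 and *Dusp1* with 12.8 ± 1.19. *Junb* followed with 9.06 ± 2.83 CPM per kilobase, *Atf3* with 4.54 ± 0.811 and *Egr2* with 2.87 ± 4.59. *Fos* had 1.72 ± 1.31 CPM per kilobase, *Egr1* 1.38 ± 0.433 and *Nr4a1* 0.749 ± 0.138. *Fosb* was the lowest with 0.0253 ± 0.0219. Without 15_5, *Fos* had 1.47 ± 0.588 and *Junb* 8.51 ± 1.31 CPM per kilobase (n = 40 libraries). *Fos* and *Egr1*, neighbours in this order, differed by less than their SDs. By mean and SD, *Egr2* overlapped with every gene from *Junb* down to *Fosb*. The length is that of all annotated exons joined, which for *Nr4a1* comes to 10903 bases and lowers its value.

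The depth behind these levels differs as much. *Fos* had between 60 and 744 counts in a library, with a median of 147, and *Egr1* between 120 and 506. *Jun* had between 3342 and 8143 counts and *Ier2* between 5034 and 10988. *Fosb* had at most 26 counts in any library, a median of 6, and a count of 0 in 3 libraries, where up to 3 counts cannot be told from 0. It stayed below the limit on low counts in the comparison of the sides in mutants with inverted looping and was not tested there. Reads of *Jun* and its antisense transcript *Junos* share a locus, *Junb* overlaps *Prdx2*, and *Dusp1* overlaps *Ergic1* and others, so these counts are uncertain where the counting did not use strand. *Atf3* overlaps *Gm55866* on the other strand, with the same limit, and *Nr4a1* overlaps *Gm56721* on its own strand, which strand cannot separate. *Dusp1* likewise overlaps *Gm50274* and *Gm50275* on its own strand.

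**Figure D1:**
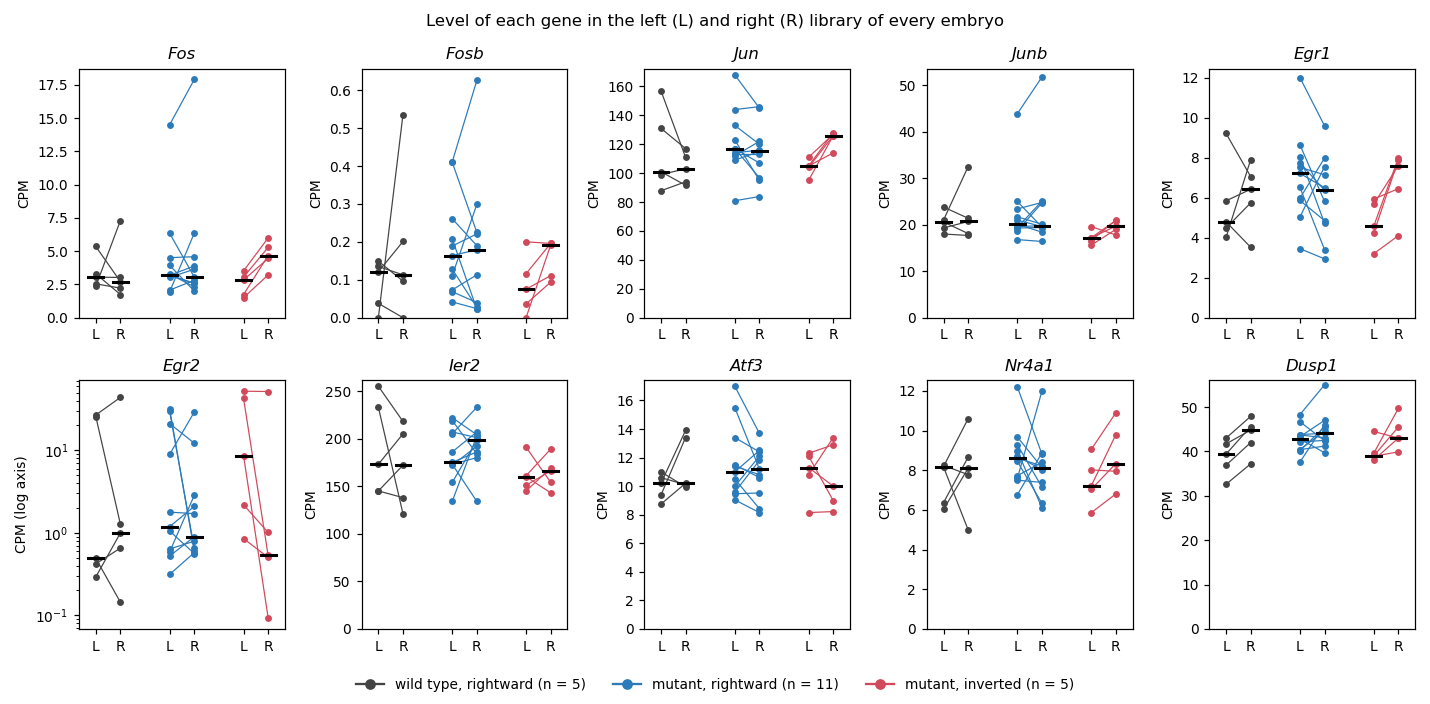
Level of each of the 10 genes, in CPM, in the left (L) and right (R) library of every embryo, joined by a line per embryo, with black bars at the median of each side and group; the axis of *Egr2* is logarithmic and the others start at 0. The embryo 15_5 lies above all others in *Fos* and *Junb*, *Egr2* spans from 0.0937 to 52.1 CPM, and in mutants with inverted looping each line of *Fos* and *Jun* rises to the right.

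In wild types, *Fos* had on the left 2.54 CPM in 7_1, 5.35 in 8_1, 3.29 in 10_1, 3.05 in 17_7 and 2.36 in 22_4. On the right it had 2.22 CPM in 7_1, 2.71 in 8_1, 1.74 in 10_1, 3.02 in 17_7 and 7.3 in 22_4. The sides overlapped, and the embryo 22_4 alone was higher on the right. In mutants with inverted looping, *Fos* had on the left 2.83 CPM in 2_7, 3.05 in 4_6, 3.51 in 10_3, 1.73 in 18_2 and 1.5 in 32_2. On the right it had 4.45 CPM in 2_7, 5.28 in 4_6, 5.99 in 10_3, 4.67 in 18_2 and 3.21 in 32_2. Every embryo of this group was higher on the right, although the right side of 32_2 stayed below the left side of 10_3. In mutants with rightward looping, *Fos* ran from 1.95 to 14.5 CPM on the left with a median of 3.2, and from 2 to 17.9 CPM on the right with a median of 3.05.

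Levels on a given side were compared between the groups to ask whether genotype or looping went along with a general rise or fall of the response. No member was called in any of the 6 comparisons by edgeR's quasi-likelihood test at an adjusted p of 0.05, and in 4 tests, 3 of them on the left between the groups of mutants, the unadjusted p was under 0.05. Of all genes, 7.89% had such a p in that comparison on the left, and 5.93% in that of the fourth test, on the right between mutants with inverted looping and wild types. Few genes were called at all. On the left, the share of all tested genes was 0.0242% between mutants with rightward looping and wild types, 0.0282% between mutants with inverted looping and wild types, and 0.0121% between the groups of mutants. On the right it was 0.0121%, 0% and 0.00805% in the same order. DESeq2 called no member either. The lowest unadjusted p among the members on the left was that of *Egr1*, which was lower in mutants with inverted than with rightward looping (log2 fold change -0.61, SE 0.22, unadjusted p = 0.0103, adjusted p = 0.488 by edgeR). On the right it was that of *Jun*, higher in mutants with inverted looping than in wild types (0.23, SE 0.1, unadjusted p = 0.0389, adjusted p = 0.834).

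Single embryos differed widely in some of the genes. The SD of the log2 level over the 21 embryos, with both sides averaged, was 2.13 for *Egr2*, higher than that of 99.8% of the 15246 genes with a mean of at least 1 CPM. It was 0.6 for *Fos*, above 95.5% of these genes, 0.39 for *Egr1* and 0.31 for *Junb*. For *Fosb*, with few counts, it was 0.75. The other 5 lay closer to the median of all genes, 0.15, with 0.21 for *Jun* and *Atf3*, 0.19 for *Ier2* and *Nr4a1*, and 0.11 for *Dusp1*, below most genes. *Dusp1*, which shuts the response off, was thus the least variable of the 10. Without 15_5 the SD of *Fos* was 0.33, above 85.8% of genes and below the 0.39 of *Egr1*, and that of *Junb* was 0.16.

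The embryo 15_5 held the highest values of *Fos* and *Junb* on both sides. *Fos* reached 14.5 CPM on its left and 17.9 CPM on its right, while the other 40 libraries ran from 1.5 to 7.3 CPM. *Junb*, the partner of FOS proteins in AP-1, had 43.9 and 51.8 CPM in this embryo and from 15.6 to 32.5 CPM elsewhere. Neither gene overlapped with the other libraries on either side. *Dusp1* had 48.3 and 55 CPM, against 32.6 to 49.7 elsewhere, and *Fosb* 0.411 and 0.626 CPM, against 0 to 0.536.

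The other members did not stand out in this embryo. *Jun* had 112 CPM on the left and 122 on the right, close to the median of the other libraries, 114. *Egr1* had 7.21 and 6.5 CPM and *Nr4a1* 7.73 and 8.4 CPM, within the range of the others, as were *Atf3* and *Ier2*. Without 15_5, the mean of *Fos* in mutants with rightward looping went from 4.47 ± 3.54 to 3.46 ± 1.26 CPM on the left (SD, n = 11 and 10) and from 4.7 ± 4.55 to 3.38 ± 1.3 CPM on the right. The mean of *Junb* on the right went from 23.6 ± 9.77 to 20.8 ± 3.01 CPM.

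Among 40 further immediate early genes, 33 had a mean of at least 1 CPM, and both libraries of 15_5 lay above all other libraries in 9 of them. These were *Fosl2*, *Btg2*, *Klf4*, *Zfp36*, *Socs3*, *Maff*, *Gadd45g*, *Nfkbia* and *Sgk1*, named here after their values were seen. *Klf4*, a zinc finger factor, had 13 and 17.1 CPM against at most 3.06 elsewhere, *Fosl2*, an AP-1 subunit, 36.1 and 44.5 CPM against at most 10.9, and *Sgk1*, a serum-induced kinase, 108 and 137 CPM against at most 69.1. *Zfp36*, which destabilises the mRNA of inflammatory genes, had 34 and 47.3 CPM against at most 19.3. Over all 15246 genes with a mean of at least 1 CPM, 4.92% lay above all other libraries in the same way. The summed heat shock genes of this embryo, 4930 and 4820 CPM, were below the range of the other libraries, 5130 to 8140 CPM, and no list of tissue markers was outside the range of the others on both sides. The part of stimulation, handling or tissue content in this embryo was not tested.

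**Figure D2:**
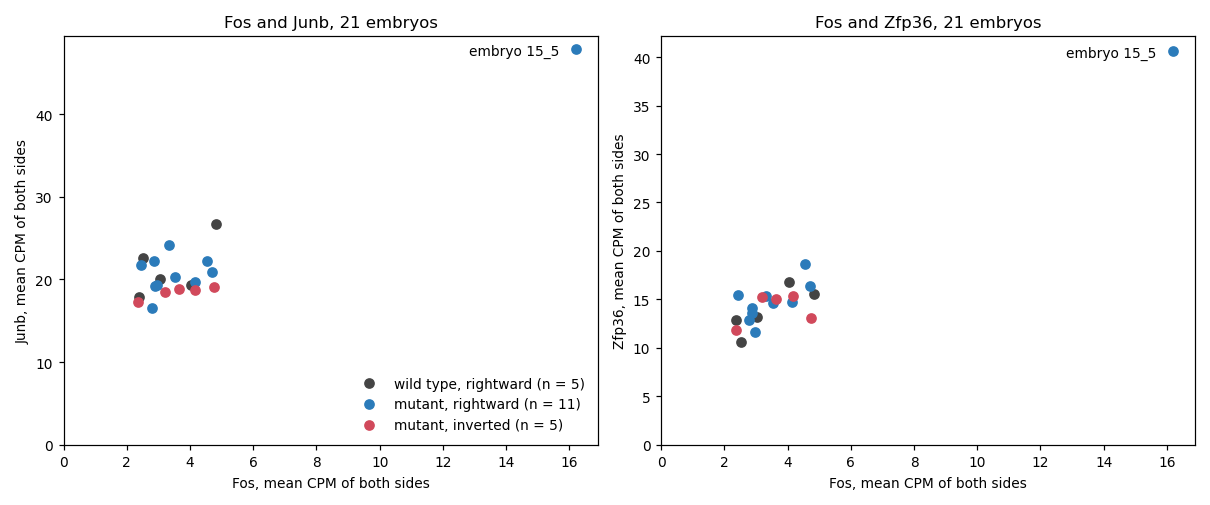
Mean CPM of both sides of *Fos* (x axis) against *Junb* (left panel) and *Zfp36* (right panel), 1 point per embryo, coloured by group. The embryo 15_5 lies far to the upper right of the other 20 embryos in both panels.

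The sides were then compared within each embryo, with the embryo as a block, to ask whether these genes differ between left and right and whether this follows the direction of looping. In mutants with inverted looping, *Fos* and *Jun* were higher on the right. *Fos* rose to the right by 0.95 on the log2 scale (SE 0.15, adjusted p = 0.0224 by edgeR) and *Jun* by 0.26 (SE 0.05, adjusted p = 0.0394). These were 2 of the 9 members tested, and 1.72% of all 22960 genes tested were called higher on the right, out of 2.04% called in either direction. In wild types edgeR called no member and no gene (0%), DESeq2 called 20 genes and no member, and 1 member, *Dusp1*, had an unadjusted p under 0.05 by edgeR, against 2.76% of all genes. In mutants with rightward looping no member was called, against 0.0263% of all genes, and 0 members had an unadjusted p under 0.05, against 3.59% of all genes. In mutants with inverted looping 5 of the 9 members had an unadjusted p under 0.05, against 15.1% of all genes.

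Embryo by embryo, the log2 right over left of *Fos* was 0.64 in 2_7, 0.78 in 4_6, 0.76 in 10_3, 1.41 in 18_2 and 1.08 in 32_2. All 5 ratios were positive, as in 8.02% of the 22960 genes tested in this group. In wild types they were -0.2 in 7_1, -0.97 in 8_1, -0.9 in 10_1, -0.01 in 17_7 and 1.61 in 22_4, and in mutants with rightward looping they ran from -1.05 in 3_7 to 1.68 in 19_4 with a median of 0.02. The embryos 22_4 and 19_4, both with rightward looping, thus had a larger right excess than any embryo with inverted looping. Leaving out single embryos ended the call of *Fos* without 18_2 (0.82, adjusted p = 0.0673 by edgeR), 32_2 (0.91, adjusted p = 0.11) or 4_6 (0.99, adjusted p = 0.0615), while the direction stayed. Without the embryo as a block the value was 0.91 (adjusted p = 0.11). In a fit of all libraries it was 0.94 (adjusted p = 0.166) and in the males alone 0.99 (adjusted p = 0.224). An exact sign-flip test, two-sided, over the 5 embryos with inverted looping gave p = 0.0625, the smallest that 5 embryos allow.

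*Jun* had on the left of mutants with inverted looping 111 CPM in 2_7, 105 in 4_6, 105 in 10_3, 95.1 in 18_2 and 104 in 32_2. On the right it had 127 CPM in 2_7, 128 in 4_6, 114 in 10_3, 126 in 18_2 and 126 in 32_2. The lowest value on the right lay above the highest on the left, so the sides did not overlap in this group. The share of all genes with such a separation was not computed. The change was 0.11 to 0.4 on the log2 scale per embryo, and 8.02% of the 22960 genes tested had all 5 ratios positive. In wild types the ratio of *Jun* ran from -0.5 to 0.1, and in mutants with rightward looping from -0.38 to 0.12. The call of *Jun* was lost without 18_2 (0.21, adjusted p = 0.157 by edgeR), 2_7 (0.28, adjusted p = 0.0809), 32_2 (0.25, adjusted p = 0.197) or 4_6 (0.26, adjusted p = 0.115). With RLE scaling its adjusted p was 0.0524. In a fit of all libraries *Jun* had 0.25 (adjusted p = 0.111 by edgeR) and in the males alone 0.27 (adjusted p = 0.396).

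*Egr1* followed *Fos* without being called. It was higher on the right in all 5 embryos with inverted looping, by 0.12 in 10_3 to 0.9 in 2_7 on the log2 scale, with a fitted value of 0.53 (SE 0.14, adjusted p = 0.119 by edgeR). DESeq2 called it (0.53, adjusted p = 0.0173), beside *Fos* and *Jun*, and called 7.64% of all genes. In mutants with rightward looping *Egr1* was higher on the left in 9 of 11 embryos, with a mean log2 ratio of -0.23 ± 0.45 (SD, exact sign-flip p = 0.115).

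*Nr4a1*, *Junb*, *Dusp1*, *Ier2* and *Atf3* had ratios closer to 0 in mutants with inverted looping. The fitted log2 right over left was 0.24 (SE 0.1) for *Nr4a1*, 0.2 (SE 0.09) for *Junb*, 0.15 (SE 0.07) for *Dusp1*, 0.03 (SE 0.09) for *Ier2* and -0.03 (SE 0.12) for *Atf3*, with adjusted p from 0.322 to 0.935. *Nr4a1*, *Junb* and *Dusp1* were higher on the right in 4 of 5 embryos. *Dusp1* was higher on the right in all 5 wild types as well, by 0.1 to 0.21, and in 8 of 11 mutants with rightward looping. *Ier2* and *Atf3* were higher on the right in 3 of 5 embryos. *Fosb*, too low to be tested, had a mean log2 ratio of 0.82 ± 0.93 (SD, n = 5). The 9 members had a median of 0.2, and the median of all genes was -0.005.

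**Figure D3:**
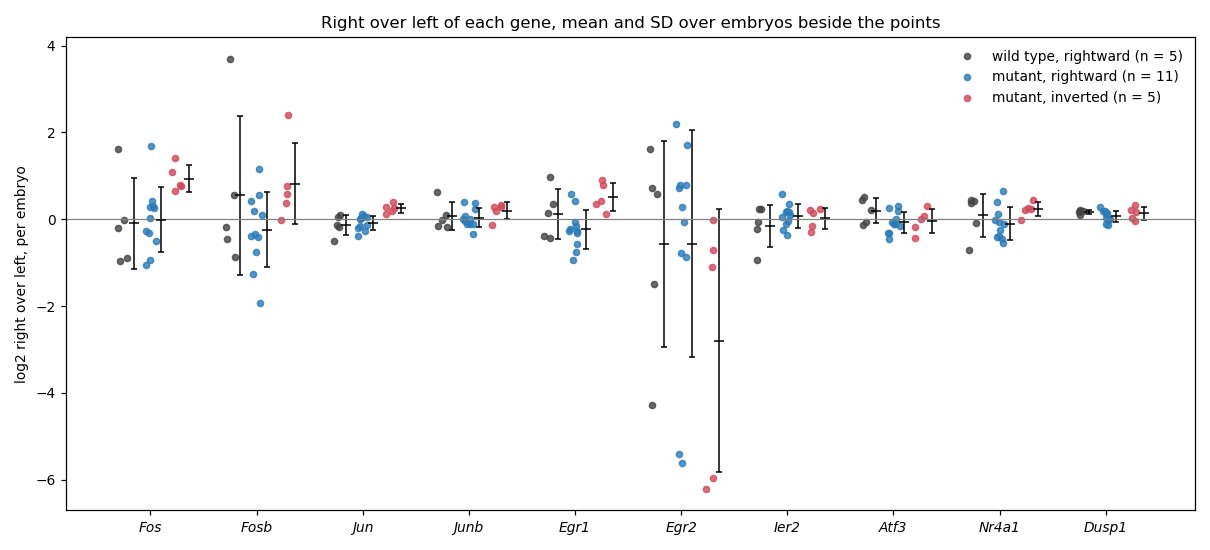
Log2 right over left of each of the 10 genes, 1 point per embryo, in wild types (grey), mutants with rightward looping (blue) and mutants with inverted looping (red), with the mean and SD beside each set of points. *Fos*, *Jun* and *Egr1* lie above 0 in all 5 mutants with inverted looping, and *Egr2* reaches -6.21.

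Whether the asymmetry itself differs between groups was tested by the interaction of side and group in all 42 libraries. No member was called by edgeR, where 0.311% of all 26335 genes were called between mutants with inverted and rightward looping, 0.513% between mutants with inverted looping and wild types, and 0% between mutants with rightward looping and wild types. At an unadjusted p under 0.05 there were 3 members in the first comparison, 2 in the second and 0 in the last, against 10.5%, 13.6% and 3.04% of all genes. *Jun* differed by 0.33 (SE 0.09, adjusted p = 0.117) between the groups of mutants and by 0.38 (SE 0.1, adjusted p = 0.0986) between mutants with inverted looping and wild types. It passed the threshold in the first comparison without the wild type 10_1 (adjusted p = 0.0404) and in the second without the wild type 22_4 (adjusted p = 0.0278). DESeq2 called *Jun* in both comparisons (adjusted p = 0.0142 and 0.00975) and *Egr1* in the first (0.76, adjusted p = 0.0486), beside 1.73% and 3.46% of all genes. The difference of *Fos* was 0.95 (SE 0.38, adjusted p = 0.358 by edgeR) between the groups of mutants and 1.05 (SE 0.45, adjusted p = 0.307) against wild types.

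Exact two-sided permutation of the groups over embryos gave p = 0.000916 for *Jun* between mutants with inverted and rightward looping, 0.00595 for *Egr1*, 0.0195 for *Fos* and 0.0424 for *Fosb*, and from 0.0861 to 0.83 for the other 6. Between mutants with inverted looping and wild types, the exact permutation p was 0.00794 for *Jun*, 0.0794 for *Fos* and 0.262 for *Egr1*. The same test gave 0.754 for *Fosb* and from 0.214 to 0.698 for the other 6. With groups of equal size, an arrangement and its mirror image count together, so the value of *Jun* was the smallest possible. The permutation p-values are not adjusted for the 10 genes, and both comparisons use the same mutants with inverted looping.

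Tissue markers moved with *Fos* and *Jun* in mutants with inverted looping. Of 8 markers of heart muscle, 6 were called higher on the right, among them *Actn2* (1.78, SE 0.16, adjusted p = 0.0036) and *Tnnt2* (1, SE 0.1, adjusted p = 0.00483), both parts of the sarcomere, and the list had a median of 1.01. Their summed level ran from 914 to 1740 CPM on the left and from 1630 to 3310 CPM on the right. Of 6 neural tube markers, *Pax6*, *Nkx6-1* and *Olig2* were called lower on the right, and the summed level ran from 64.4 to 97.8 CPM on the left and from 13.1 to 56.5 CPM on the right, without overlap. Of 8 second heart field markers, *Tbx5* (0.74) and *Osr1* (0.6) were called higher on the right. No marker of blood, endothelium, foregut, visceral endoderm, neural crest or paraxial mesoderm was called by edgeR, while DESeq2 called 3 of 7 endothelial markers and *Epcam* higher and *Ets1* and *Tcf15* lower on the right. The log2 right over left of the summed endothelial markers was positive in all 5 embryos, from 0.14 to 0.32. That of the paraxial mesoderm markers was negative in all 5, from -1.4 to -0.03. The other lists in this set had embryos of both signs. The part of heart muscle and neural tube content in the ratios of *Fos* and *Jun* was not tested.

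Over all 21 embryos the ratio of *Fos* ran parallel to that of heart muscle. Log2 right over left of *Fos* and of the summed heart muscle markers had a Pearson r of 0.87 and a Spearman rho of 0.92 (permutation p = 1e-05 for each, the smallest that the permutations can give, adjusted p = 5e-05). Without the 2 embryos farthest from the median of the markers r was 0.9, and within the 11 mutants with rightward looping, where neither *Fos* nor the markers were called, it was 0.87. The embryos 22_4 and 19_4, with the largest right excess of *Fos*, had marker ratios of 0.98 and 1.43, and 10_1 and 2_2, with *Fos* ratios of -0.9 and -0.95, had marker ratios of -1.69 and -1.7. The lowest ratios of *Fos*, -1.05 in 3_7 and -0.97 in 8_1, stood beside marker ratios of -0.51 and -0.62. For *Zfp36* r was 0.82 and for *Egr1* 0.68, with permutation p of 1e-05 and 0.00079. For *Jun*, r was 0.57 over all embryos but -0.18 within the mutants with rightward looping, so its relation did not hold within that group. These relations, 10 in all with those to the neural tube markers, were chosen after the values were seen.

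**Figure D4:**
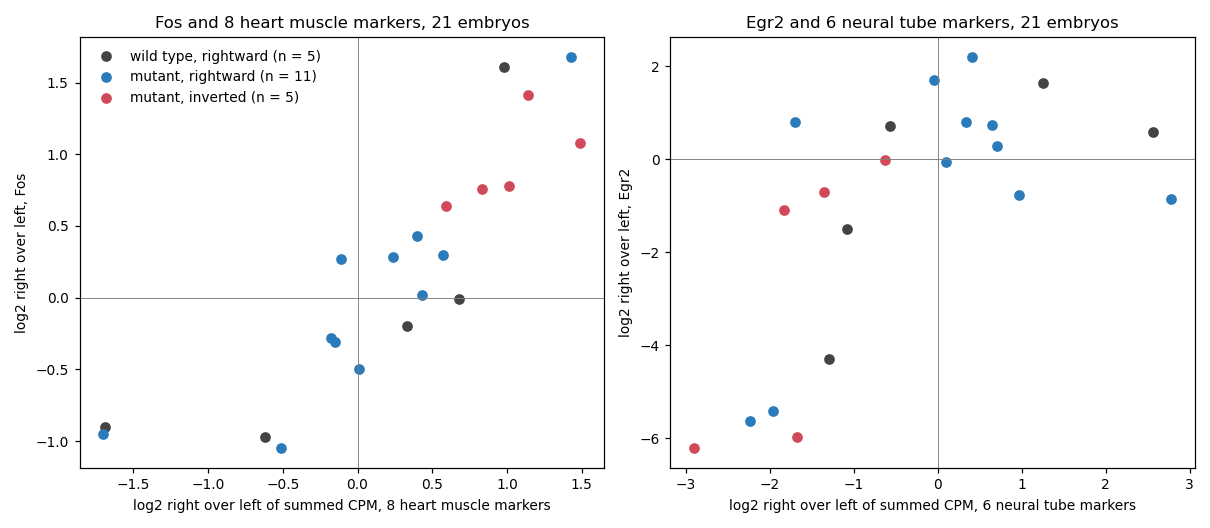
Left panel, log2 right over left of *Fos* (y axis) against that of the summed CPM of 8 heart muscle markers (x axis); right panel, the same for *Egr2* and 6 neural tube markers; 1 point per embryo, coloured by group. The points of *Fos* follow a rising line through all groups (r = 0.87), and the strongly left-sided embryos of *Egr2* all lie where the neural tube markers are higher on the left.

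Among the 15246 genes with a mean of at least 1 CPM, the 10 whose ratio was most like that of *Fos* over 21 embryos had a Pearson r of 0.91 to 0.94 with it. They were the long noncoding RNA *E130006D01Rik*, *Des* (desmin, the intermediate filament of muscle), *Abra* (an activator of SRF signalling in striated muscle), *Mylk3* (cardiac myosin light chain kinase), *Csrp2* (a LIM domain protein of muscle), *Ppp1r3d*, *Cck*, *Ptges3l*, *Smyd1* (a methyltransferase of heart muscle) and *Myl9* (a myosin light chain). None of them was an immediate early gene of the lists. The same 10 genes led without 15_5, with r from 0.92 to 0.96. None of the 9 protein-coding genes among them held a CArG box, CRE or AP-1 site in the window defined above. These were in 2.9%, 2.71% and 8.21% of all protein-coding genes, so 9 windows are too few to show a lack.

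In the mean of both sides, the genes most like *Fos* were different ones. They were *Zfp36* (r = 0.91), *Sh2d5*, *Stat3*, *Dap*, *Sorbs3*, *Cstb*, *Vill*, *Pold4*, *Osbpl5* and *Ano1*, the last with r = 0.87. *Stat3*, a factor activated by cytokines, had 65.4 and 87.9 CPM in 15_5 and at most 47.4 CPM elsewhere. All 10 were higher in both libraries of 15_5 than in any other library. Without 15_5 only *Zfp36* of these remained among the 10 nearest to *Fos*, with r = 0.67 over 20 embryos.

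Relations of *Fos* with the other 9 members were computed for the mean of both sides and for right over left, 18 in all, and 9 had a Benjamini-Hochberg adjusted permutation p under 0.05. In right over left, *Fos* ran parallel to *Egr1* (r = 0.76, rho = 0.8, permutation p = 7e-05 and 3e-05, adjusted p = 0.00072 and 0.00054), to *Nr4a1* (r = 0.7, rho = 0.68, adjusted p = 0.00207 and 0.00522) and to *Fosb* (r = 0.7, rho = 0.63, adjusted p = 0.00174 and 0.0113). *Junb* (r = 0.6) and *Jun* (r = 0.54) followed with adjusted permutation p of 0.0118 and 0.0226. Within the mutants with rightward looping r was 0.72 for *Egr1* and 0.8 for *Nr4a1*, but 0.31 for *Junb* and -0.11 for *Jun*. For scale, 2.78% of genes with a mean of at least 1 CPM had a ratio as closely related to *Fos* as *Egr1*. The shares were 4.59% for *Fosb*, 4.62% for *Nr4a1*, 8.25% for *Junb* and 11% for *Jun*. *Ier2* and *Atf3* showed no relation (r = 0.25 and -0.2, adjusted permutation p = 0.444 and 0.505).

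In the mean of both sides, *Fos* was related to *Junb* (r = 0.81, rho = 0.38, adjusted permutation p = 0.0121 and 0.154), *Fosb* (r = 0.72, rho = 0.61, adjusted p = 0.00072 and 0.0132) and *Dusp1* (r = 0.65, rho = 0.57, adjusted p = 0.0175 and 0.0188). The relation to *Junb* rested on 15_5, as r was 0.29 over the other 20 embryos and 0.2 without the 2 embryos farthest from the median of *Fos*, 15_5 and 32_2. That to *Dusp1* went to 0.35 and 0.32 in the same way, and that to *Fosb* stayed at 0.61 and 0.63. *Egr1* was not related to *Fos* in level (r = 0.09), although their ratios ran in parallel.

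*Egr2* behaved unlike the other members. It had more than 5 CPM in 13 of 42 libraries, from 8.65 to 52.1 CPM, and at most 2.85 CPM in the other libraries, with none between these values. Of the 13 libraries 9 were left and 4 were right, and they came from wild types (3), mutants with rightward looping (6) and mutants with inverted looping (4). In 4 embryos both sides were above 5 CPM, in 5 the left side alone, and in none the right side alone. In mutants with inverted looping it had on the left 8.65 CPM in 2_7, 2.19 in 4_6, 52.1 in 10_3, 0.852 in 18_2 and 42.8 in 32_2. On the right it had 0.0937 CPM in 2_7, 1.01 in 4_6, 51.6 in 10_3, 0.503 in 18_2 and 0.532 in 32_2.

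All 5 of these ratios were negative, from -6.21 in 32_2 to -0.02 in 10_3, as in 7.51% of all genes, but their spread was large and *Egr2* was not called (-2.63, SE 1.08, adjusted p = 0.299 by edgeR). Its value went to -3.76 without 10_3 and to -1.58 without 32_2. Strongly negative ratios, although none below the -6.21 of 32_2 and the -5.97 of 2_7, occurred with rightward looping too, at -5.63 in 19_4, -5.41 in 15_5 and -4.29 in the wild type 22_4. Over the 21 embryos the ratio of *Egr2* ran against that of *Fos* (r = -0.68, rho = -0.73, adjusted permutation p = 0.00299 and 0.00198) and with that of the neural tube markers (r = 0.65, rho = 0.57, adjusted permutation p = 0.0025 and 0.00758). The ratio of *Fos* ran against the same markers (r = -0.65, adjusted permutation p = 0.0025). Within the 11 mutants with rightward looping r with these markers was 0.53 for *Egr2* and -0.42 for *Fos*.

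The 10 genes most like *Egr2* were looked up after its values were seen. In right over left they included *Ncan* (r = 0.81), *Lrrc4*, *Nfasc*, *Fgf3* (a growth factor of the hindbrain), *Trib2*, *Ptn*, *Crabp1*, *Pum3* and *Kif21a* (r = 0.73). In the mean of both sides they included *Kcna1* (r = 0.92), *Myo5b*, *Fgf3*, *Tubb3* (a neuronal tubulin), *Cnp*, *Pde11a*, *Crabp1*, *Car10* and *Ctnnd2* (r = 0.86). No other member was among the 10 genes nearest to *Egr2*.

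Of the 40 further immediate early genes, 38 were tested in mutants with inverted looping, and *Zfp36* alone was called. It was higher on the right in all 5 embryos, by 0.34 in 4_6 to 0.79 in 18_2 on the log2 scale, with a fitted value of 0.52 (SE 0.1, adjusted p = 0.034 by edgeR). The list had a median of 0.18, against -0.005 over all genes, and 29 of the 38 were positive. The 1 call of 38 stands beside the 2.04% of all genes called in this comparison. This call was lost when any of the 5 embryos was left out, with adjusted p from 0.0678 to 0.142 and values from 0.44 to 0.57. It was also lost without the embryo as a block (0.52, adjusted p = 0.0629 by edgeR), in a fit of all libraries (0.51, adjusted p = 0.119) and in the males alone (0.55, adjusted p = 0.298). DESeq2 also called *Gadd45g*, *Klf6*, *Klf10* and *Plk2* higher on the right, by 0.18 to 0.33. None of this list was called in wild types, where 39 were tested, nor in mutants with rightward looping, where 38 were tested. At an unadjusted p under 0.05 there were 1 and 2 genes, against 2.76% and 3.59% of all genes.

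Genes that act before the response were compared between the sides in the same way. None of 15 genes of the MAPK, SRF and CREB pathways was called by edgeR in mutants with inverted looping, and their median was 0.02. At an unadjusted p under 0.05 there were 4 of 15, against 15.1% of all genes. DESeq2 called *Mrtfa* and *Mrtfb*, coactivators of SRF, higher on the right by 0.2 each (adjusted p = 0.034 and 0.032). Of 11 heat shock genes, *Hspb1*, a small chaperone abundant in heart muscle, was called higher on the right (1.53, SE 0.2, adjusted p = 0.0101), and the list had a median of -0.06. DESeq2 called 2 of them higher (*Hspb1* and *Bag3*) and 3 lower on the right (*Hsp90aa1*, *Hspd1* and *Hspe1*), and the summed list was lower on the right in all 5 embryos, with a median log2 ratio of -0.04. The median was -0.04 in mutants with rightward looping, where 3 of 11 were higher on the right, and -0.05 in wild types, where 1 of 5 was. None of 10 hypoxia genes was called by edgeR, and DESeq2 called *Ddit4* lower on the right (-0.46). In wild types and in mutants with rightward looping, no gene of these lists was called by edgeR.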

How the data were processed

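Counts came from polyA RNA libraries of the left and right heart field of each embryo. Per the labels the authors used STAR, GRCm39 and featureCounts (Subread 2.0.6), and deposited raw counts per Ensembl gene without normalization. Strand handling was not given in the sources used here. Positions and symbols came from GENCODE M39, which held 56310 of 56953 identifiers, and sequences from the GRCm39 assembly. No pair of libraries agreed within sampling noise.

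Low genes were removed by filterByExpr of edgeR 4.0.16 (smallest count 5, total 10, share of samples 0.2 beyond 50). After TMM scaling, every gene kept entered the quasi-likelihood test of edgeR, and p-values were adjusted over them by Benjamini-Hochberg, with 0.05 as the threshold. Right over left carried the embryo as a block, since the labels name the embryo behind each pair of libraries. Differences of asymmetry were interactions over all 42 libraries, and levels per side carried sex. Ratios per embryo used log2 CPM with 2 as the prior count. Values of single genes were tested by exact sign flips or permutations, and correlations by 100000 permutations. Alternatives were DESeq2 1.42.0, other scalings and filters, males alone, no block, no sex term, a fit of all libraries and leaving out each embryo. Tests were checked on simulated data.

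The text names all 10 members, up to 5 further immediate early genes and 3 genes of the upstream, heat shock and hypoxia lists per comparison past the threshold, the 10 genes most like *Fos* in level and in ratio, and *Ccdc40*. Other names were chosen after their values were seen. The members and lists were chosen with earlier results of these data known. Embryos are separate animals, and p-values measure the spread between them. The limit given for a count of 0 covers counting error only. Some genes most like *Egr2* are not reported here.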

Additional observations from a re-analysis of the deposited data

Results flagged for a closer look

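Of 60 sets of values per gene, group and side or ratio, 3 held an embryo far from the other 4 of its group, where chance alone gives about 1 in 20. All 3 lay among the mutants with inverted looping. *Jun* on the right had a log2 CPM of 6.83 in 10_3 and from 6.97 to 7.0 in the others. The log2 right over left of *Junb* was -0.14 in 4_6 and from 0.2 to 0.33 in the others. *Dusp1* on the left had a log2 CPM of 5.48 in 2_7 and from 5.25 to 5.31 in the others.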

How the results depend on the processing

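In the comparison of the sides in mutants with inverted looping, 2 members were called. DESeq2 called 3, with *Egr1*. With RLE scaling 1 was called (*Fos*), 0 in the 3 males, 0 where all libraries shared a fit, and without the replicate block 1 (*Jun*, with 305 genes called in all). Leaving out each embryo gave 0 to 2 members. For the asymmetry difference, DESeq2 called 2 members between the groups of mutants and 1 between mutants with inverted looping and wild types, where edgeR called 0, and leaving out each embryo gave 0 to 1 in both. All other alternatives kept the number of members called in each comparison, and the block changed no other call among the members. The causes were not tested, but the males are 3 of the 5 embryos. Over all genes, 468 were called on the sides of mutants with inverted looping, 1755 by DESeq2, 942 of 39695 without a filter on low counts, 141 where all libraries shared a fit and 53 in the males, with 138 to 446 when each embryo was left out. For the asymmetry difference, 82 genes were called between the groups of mutants and 135 against wild types, 456 and 911 by DESeq2, 131 and 207 without a filter, 17 and 7 without the block, and 7 and 3 in the males. Leaving out an embryo moved them to between 18 (without 18_2) and 192 (without 10_1), and between 17 (without 32_2) and 641 (without 22_4). In the other comparisons edgeR called 0 to 7 genes and DESeq2 up to 104. The correlation of the ratios of *Jun* and *Fos* was -0.11 within the 11 mutants with rightward looping, against 0.54 over all embryos. Counts limit *Fosb*, at most 26 in a library.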

Other observations

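The right side of the wild type 22_4 held the highest *Fos*, *Fosb* and *Junb* of the 40 libraries outside 15_5, with 7.3, 0.536 and 32.5 CPM. Its left side held 2.36, 0 and 21 CPM. These genes were thus high on a single side in 22_4 and on both in 15_5. In 22_4 the right side also held more heart muscle marker RNA, 2590 against 1310 CPM on the left, which was not tested as a cause.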
